A study of Mus musculus with 8 samples.

Results

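The deposited expression table was read for 5 genes, Tbx21, Zeb2, Prdm1, Id2 and Runx3, which code for transcription factors of effector CD8 T cells. They were taken by symbol, and all 5 were found among 13204 genes. The cells were OT-I CD8 T cells, which carry a transgenic receptor for an ovalbumin peptide. Mice received 1000000 of them 24 hours before a graft of skin that made ovalbumin. On day 14 after grafting, spleens were combined into 4 pools of 3, and from each pool 1000 FcgRIIB+ and 1000 FcgRIIB- cells were sorted, all of them CD44hi, Thy1.1+ and CD8+. FcgRIIB is the inhibitory receptor for the constant part of IgG. By design both groups of 4 libraries therefore share the transgenic receptor, the graft, the day and the pools, and differ in the surface receptor used for sorting. Genes of other cell types also differed between the groups, as given further on. Positive and negative cells below are names of the sorted fractions. The age and strain of the recipients are not given in the sources used here. Each library stands for 1 pool, so the spread between libraries is a spread between pools of mice.

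An effector CD8 T cell is built by a small circuit of transcriptional regulators. T-bet, the product of Tbx21, and RUNX3 open and activate effector genes such as those of interferon gamma and cytotoxic granules. ZEB2 and Blimp-1, the product of Prdm1, are mainly repressors that complete terminal differentiation, while ID2 binds no DNA and acts by holding E proteins away from it. Each has a relative or opponent linked to memory cells, namely Eomes, Zeb1, Bcl6 and Id3, and RUNX3 has the related factor RUNX1. Outside T cells, dendritic cells and macrophages are known to express Zeb2 and Id2, plasma cells Prdm1, and NK cells all 5.

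Values are given as RPKM, in which reads are divided by exon length and by the depth of the library, so levels can be set side by side between genes. Depth, recovered from the size of single-read steps, lay between 3060000 and 22020000 reads. A gene was called changed when its adjusted p was below 0.05 in limma on log2(RPKM + 1), fitted over 11946 genes with Benjamini-Hochberg adjustment. Fold changes below are positive minus negative on that log2(RPKM + 1) scale, which understates changes of low genes. The sorted receptor's gene Fcgr2b lay between 29.6 and 69.9 RPKM in positive libraries and between 1.82 and 4.82 RPKM in negative ones.

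None of the 5 factors was called (0 higher, 0 lower), beside 3.3% of all genes tested, 3.03% higher and 0.268% lower. By limma's unadjusted p, 1 of the 5 lay below 0.05, Zeb2 (limma p = 0.0496, exact permutation p = 0.171). With the pool as a block, a fit that compares the cells of a pool with each other, none was called either, beside 11.1% of all genes, 7.22% higher and 3.85% lower. Tbx21 was lower and Id2 and Prdm1 were higher in positive cells in 4 of 4 pools. Such a uniform direction was seen in 10.3% of all genes for higher and 19.8% for lower. Zeb2 was higher in 3 pools and Runx3 lower in 3 pools.

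**Figure D1:**
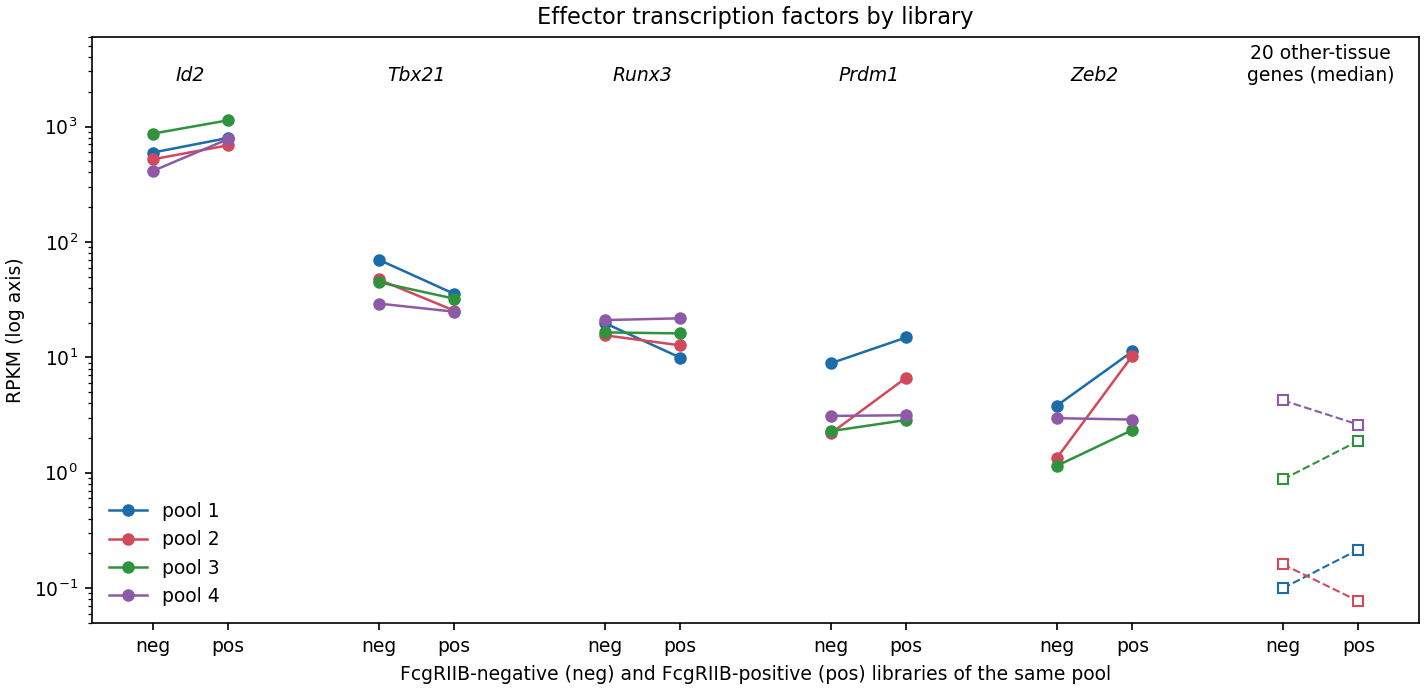
RPKM (log axis) of the 5 factors in each library, with a line joining the negative and positive library of each pool; open squares are the median of 20 genes of other tissues in the same libraries. Id2 sits between 411.5 and 1132 RPKM in every library, whereas in pools 3 and 4 Zeb2 lies at 0.701 to 1.31 times and Prdm1 at 0.733 to 2.62 times the open square of the same library.

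The level of the factors spanned more than their group differences. Id2 was the most abundant in each of the 8 libraries, at percentile 98.9 of all tested genes in negative and 99.4 in positive cells by mean RPKM. Tbx21 came next, at percentiles 84.8 and 78.6, then Runx3 at 68.8 and 64.9. Prdm1 was at percentiles 32.6 and 44.1, and Zeb2 at 17.9 and 43.2. In negative libraries the ranges of Id2, Tbx21, Runx3 and Prdm1 did not overlap with their neighbours in this order, and those of Prdm1 and Zeb2 did. In positive libraries the ranges of Runx3 and Prdm1 overlapped too, so only the order of Id2, Tbx21 and Runx3 exceeded the spread there.

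Before the single factors, a feature of the libraries has to be given because it touches the low ones. A list of 45 genes used in nerve, muscle, kidney, cartilage or embryonic patterning, and not known from blood cells, was written after these values were seen, and 20 of them are in the table. Their median was 0.1 and 0.161 RPKM in negative replicates 1 and 2 and, for the positive cells of those pools, 0.216 and 0.077 RPKM. It was 0.877 and 4.24 RPKM in negative replicates 3 and 4 and, for the positive cells there, 1.89 and 2.61 RPKM. All genes in the table passed a common minimum in at least 4 libraries, so lower genes of this kind are outside it. The highest of the 20 genes was at 1.90 RPKM in negative replicate 3, 7.63 RPKM in negative replicate 4, and 3.98 and 4.37 RPKM in the positive cells of pools 3 and 4. A value below these cannot be told, in that library, from the level of these 20 genes, which these cells are not known to use. Exon length moved with the pools as well. The 1565 tested genes with exons up to 1500 bases had a median 0.75 higher on the log2 scale in pools 3 and 4 than in pools 1 and 2, and the 2100 genes between 6000 and 12000 bases a median of -0.24. The 268 genes above 12000 bases had a median of -0.006. Zeb2, with 14543 exon bases, belongs to these, and Id2 (1272 bases) and Id3 (953 bases) to the genes up to 1500 bases. The part of either feature in the group differences was not tested.

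Id2 codes for an inhibitor of E proteins that is needed for effector CD8 T cells to accumulate. In negative replicates 1 to 4 it was at 594.7, 519.7, 867.2 and 411.5 RPKM, and in the positive ones at 796.1, 687.6, 1132 and 777.4 RPKM. The positive library was higher in every pool, while the groups overlapped through negative replicate 3. The log2 difference within pools was 0.42, 0.40, 0.38 and 0.92. Its fold change over the groups was 0.53 (SE 0.44, 95% interval -0.43 to 1.49, limma adjusted p = 0.794), and the interval with the pool as a block was -0.18 to 1.24 (adjusted p = 0.391). An exact permutation test over the libraries gave p = 0.114, two-sided. The smallest value this test can give is 0.0286.

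Id3, the relative of Id2 that is linked to memory precursors, differed in the other direction. It fell from 133.3 ± 52.1 to 32.3 ± 12.7 RPKM (SD, n = 4 each), a fold change of -1.99 (SE 0.41, limma adjusted p = 0.0187). The lowest negative library, at 73.2 RPKM, was above the highest positive library, at 50.8 RPKM. Among all tested genes 4.15% showed such a separation downward. The call ended when negative replicate 2 or 3 or positive replicate 1 or 2 was left out (adjusted p up to 0.0897), and after scaling to core T cell genes, described further on (-0.89, adjusted p = 0.147, and 0.0041 with the block at that scaling). Id1, another member of the family, was at 2.53 ± 1.93 RPKM in negative and 7.93 ± 5.83 RPKM in positive cells and was called with the block alone (1.29, adjusted p = 0.00823). Among the E proteins that ID proteins bind, Tcf3 had a fold change of -0.52, Tcf12 of -0.58 and Tcf4 of 0.83, and none was called.

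The ratio of Id2 to Id3 within a library removes any scaling that both genes share. It was 3.00, 1.46, 2.40 and 1.91 log2 units in negative replicates 1 to 4 and 5.03, 4.73, 5.19 and 3.91 in positive replicates 1 to 4. Every positive library lay above every negative one. The means were 4.71 ± 0.57 and 2.20 ± 0.66 (SD, n = 4 each), a difference of 2.52 log2 units or 5.73-fold (exact permutation p = 0.0286, 0.0714 after adjustment over the 5 ratios computed). The permutation p is the smallest this test can give, and passes the adjustment only where enough of the 5 ratios share it. Not passing is therefore set by the test and is no measure of this difference. Within pools the exact sign-flip p was 0.125, the smallest that 4 pairs allow. Since Id3 and Id2 values of these libraries were known before the ratio was chosen, it is a description of their joint change and no separate evidence for the fall of Id3.

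**Figure D2:**
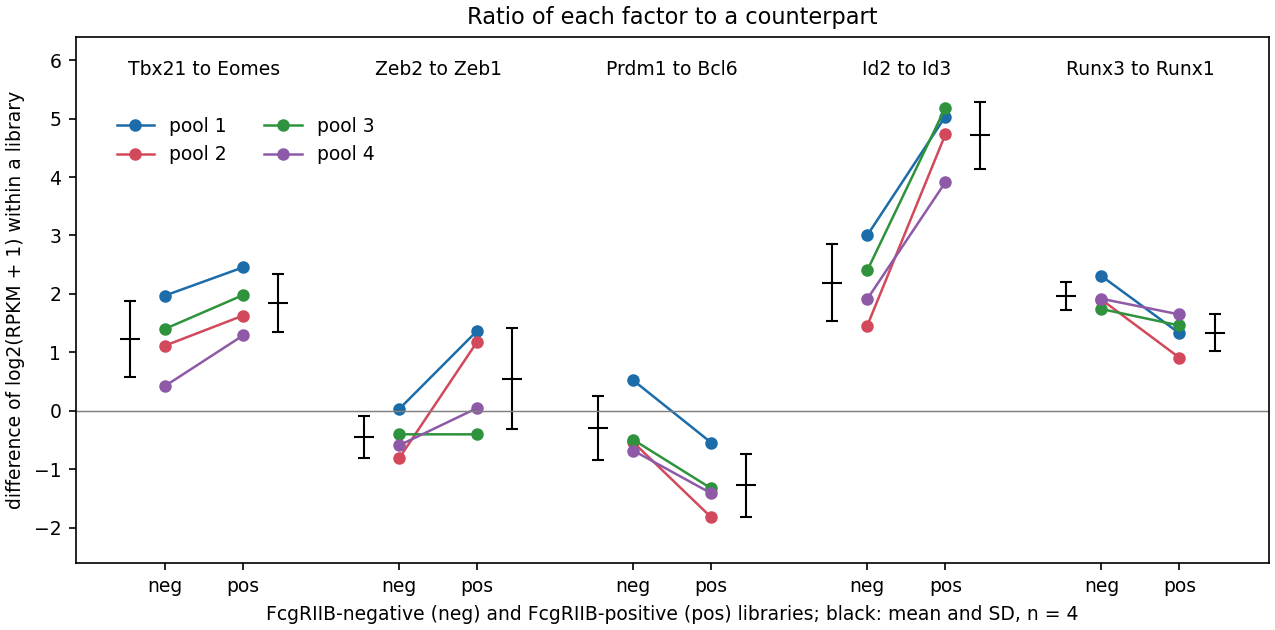
Difference of log2(RPKM + 1) between each factor and a counterpart gene in the same library, with lines joining the libraries of a pool and black bars for mean and SD (n = 4). The Id2 to Id3 ratio has means of 2.20 in negative and 4.71 in positive cells and no overlap. The Runx3 to Runx1 ratio has means of 1.97 and 1.34 and none. Both are at the smallest p the exact permutation test can give, 0.0286. With no other of the 5 ratios at that p, neither could pass the adjustment.

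Tbx21 codes for T-bet, the T-box factor that drives interferon gamma and cytotoxic genes. It was at 70.2, 47.3, 44.8 and 29.2 RPKM in negative replicates 1 to 4 and, in the same order, at 35.5, 25.4, 32.3 and 24.9 RPKM in positive cells. The difference was widest in pools 1 and 2, at -0.96 and -0.87 log2 units, and smaller in pools 3 and 4, at -0.46 and -0.23. The groups overlapped only through negative replicate 4, which lay below the positive libraries of pools 1 and 3. The fold change was -0.63 (SE 0.35, 95% interval -1.38 to 0.13, limma adjusted p = 0.554). With the block the interval was -1.11 to -0.14, and the adjusted p of 0.0895 missed the threshold. The exact permutation p was 0.0857.

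Eomes, the T-box relative of T-bet that supports memory cells, fell from 19.0 ± 2.72 to 7.55 ± 1.60 RPKM (SD, n = 4 each; fold change -1.24, SE 0.28, limma adjusted p = 0.0318). The negative libraries lay at or above 16.3 RPKM and the positive ones at or below 9.57 RPKM. This call was near the threshold: of 8 fits that each omit a library it was kept in 1, that without positive replicate 4, and reached an adjusted p of 0.103. It also ended after median-ratio, common-sum and quantile scaling, with adjusted p of 0.0533, 0.128 and 0.0623, and after core T cell scaling (-0.21, adjusted p = 0.638, and 0.551 with the block). The ratio of Tbx21 to Eomes was higher in positive cells in 4 of 4 pools, at 1.84 ± 0.50 against 1.23 ± 0.64 log2 units. The groups overlapped, and the difference of 0.61 did not pass (exact permutation p = 0.2, and 0.2 adjusted over 5 ratios).

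Runx3 codes for the RUNT-domain factor that silences Cd4 and sustains Cd8 genes and cytotoxic programmes. It was at 19.8, 15.5, 16.4 and 21.0 RPKM in negative and at 9.94, 12.7, 16.1 and 21.8 RPKM in positive libraries, each in replicate order. The lower values of positive cells lay mainly in pools 1 and 2, at -0.93 and -0.27 log2 units, and pools 3 and 4 were at -0.03 and 0.05. The fold change was -0.29 (SE 0.31, 95% interval -0.98 to 0.39, limma adjusted p = 0.894; exact permutation p = 0.343). Runx1 was at 3.91 ± 0.75 RPKM in negative and 5.28 ± 1.38 RPKM in positive cells, higher in 4 of 4 pools and not called (0.34, limma adjusted p = 0.809). The Runx3 to Runx1 ratio was lower in each positive library than in any negative one, at 1.34 ± 0.31 against 1.97 ± 0.24 log2 units. The difference was -0.63 (exact permutation p = 0.0286, the smallest possible, and 0.0714 adjusted over 5 ratios). Within pools the exact sign-flip p was 0.125, again the smallest that 4 pairs allow. Runx1 lay above all 20 other-tissue genes in 3 of the 4 libraries of pools 3 and 4, and in negative replicate 4, at 4.83 RPKM, within their range. Their common partner gene Cbfb had a fold change of -0.42 and was not called. Of the targets named above, Cd8a had a fold change of -0.28 and Cd8b1 of -0.95, neither called. Cd4 was at 2.34 ± 2.24 in negative and 6.28 ± 2.07 RPKM in positive cells and was called higher with the block alone (1.27, adjusted p = 0.0108). Of 8 fits without the block that each omit a library, it was called in 1, that without negative replicate 4. The negative mean of Cd4 lay below the highest other-tissue gene of negative replicate 4, at 7.63 RPKM. In negative replicates 1 to 3 the highest such gene was at 0.207, 0.55 and 1.90 RPKM, below that mean. Any link of Cd4 to Runx3 was not tested.

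Runx3 and Runx1 also share a stretch of promoter sequence, shown because it is the letter pattern that RUNX proteins recognise. All 5 factors were found in the RefSeq promoter table (build GRCm38.p6), which gives 300 bases around each start site, 250 before and 50 after. The motif ACCACA, searched on both strands, occurs in 16.8% of 32851 promoters. A pair of these motifs spaced by GA, noticed after reading the sequences, occurs in 4 of them, those of Runx1, Runx2, Runx3 and Gm16225. Runx3 and Runx1 have 2 start sites each, and the motif was found at only 1 of them. From that start the pair begins at position -134 in Runx3 and at position 29, after the start, in Runx1. The windows of 30 bases around it are given 5′ to 3′ on the strand of the gene, with the motifs in capitals; the Runx3 window is chr4:135120499-135120528 on the plus strand and the Runx1 window chr16:92826029-92826058 on the minus strand.
Runx3: tctggtccctcaACCACAgaACCACAaggc
Runx1: acctcataaacaACCACAgaACCACAagtt
A match describes the letters alone, and no binding was measured here.

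Zeb2 codes for a zinc-finger repressor that acts with T-bet in terminal effector cells. It had the widest group difference of the 5 factors, and that difference lay in pools 1 and 2. Its RPKM was 3.82, 1.35, 1.15 and 2.97 in the negative and 11.2, 10.3, 2.35 and 2.89 in the positive libraries, in the order of replicates 1 to 4. Both positive libraries of pools 1 and 2 lay above all others, and those of pools 3 and 4 lay within the range of the negative libraries. The log2 difference was 1.34 and 2.27 in pools 1 and 2, and 0.64 and -0.03 in pools 3 and 4. The fold change was 1.06 (SE 0.48, 95% interval 0.00 to 2.11, limma adjusted p = 0.409), and with the block the adjusted p was 0.0525 (interval 0.34 to 1.77). An exact permutation test gave p = 0.171.

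In pools 1 and 2 Zeb2 stood between 8.39 and 133.9 times above the median of the other-tissue genes, and none of the 20 reached its value. In pools 3 and 4 it stood between 0.701 and 1.31 times that median, and between 6 and 15 of the 20 genes were at or above it. Zeb2 rested on 123 to 3301 reads per library. In pools 1 and 2 alone Zeb2 was called higher (1.81, limma adjusted p = 0.0159), the only 1 of the 5 factors called in that fit, beside 8.51% of all genes, 7.32% higher and 1.19% lower. That fit had 2 libraries per group and no block. It covers the pools in which the Zeb2 difference lay, so it is no separate evidence for that difference. In pools 3 and 4 alone the fold change of Zeb2 was 0.30 (limma adjusted p = 0.931). With the other-tissue median subtracted in each library, an alternative chosen after seeing the data, the fold change was 1.06 (adjusted p = 0.883, and 0.0534 with the block). Zeb1, the relative linked to memory cells, was at 3.41 ± 1.31 and 3.47 ± 0.53 RPKM in negative and positive cells (0.06, 95% interval -0.63 to 0.75). The Zeb2 to Zeb1 ratio was 0.55 ± 0.86 against -0.44 ± 0.36 log2 units and did not pass (exact permutation p = 0.0857, 0.107 adjusted over 5 ratios). In every library of pools 3 and 4 Zeb1 too lay below the highest of the 20 other-tissue genes. Its level and this ratio cannot be told from that background there.

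The E-box that ZEB repressors are known to bind, CAGGTG on either strand, was searched in the same promoters, 20.2% of which hold it. It is in the promoters of Tbx21 and Prdm1 and in the upstream promoter of Runx3, and was not found in those of Id2 or in the 4 of Zeb2 itself. No match overlapped another motif searched. The windows, with the E-box in capitals, are chr11:97115510-97115539 (minus strand) for Tbx21, chr10:44458818-44458847 (minus strand) for Prdm1 and chr4:135120400-135120429 (plus strand) for Runx3.
Tbx21: gtttcagagtttCAGGTGgcaggttgactc
Prdm1: ggctgggctggcCAGGTGcggccacgcccc
Runx3: gacatcacagccCAGGTGacagtggcctag
The motif GTGAAAG of Blimp-1 and the T-box motif TCACACC, held by 4.24% and 3.98% of all promoters, were in none of the promoters of the 5 factors.

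Prdm1 codes for Blimp-1, a repressor of memory genes such as Bcl6, Id3 and Tcf7. It was at 8.88, 2.20, 2.29 and 3.11 RPKM in negative and at 14.9, 6.66, 2.86 and 3.15 RPKM in positive libraries, each in replicate order. Every pool was higher in positive cells, by 0.68, 1.26, 0.23 and 0.01 log2 units. Positive replicate 1 lay above all negative libraries and the other positive ones within their range. The fold change was 0.55 (SE 0.50, 95% interval -0.54 to 1.64, limma adjusted p = 0.835; exact permutation p = 0.429), and 0.13 without positive replicate 1. With the block the interval was -0.08 to 1.17 (adjusted p = 0.298). In pools 1 and 2 Prdm1 was at least 13.7 times above the other-tissue median. In negative replicate 4 and positive replicates 3 and 4 it was at 0.733, 1.52 and 1.21 times that median, with 14, 6 and 5 of the 20 genes at or above it. In negative replicate 3 it was at 2.62 times the median, above all 20. The read number was lowest here, at 54 reads in negative replicate 4 and up to 1393 in positive replicate 1.

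Bcl6, the opponent of Blimp-1, differed in the same direction. It was at 5.88, 3.64, 3.64 and 5.58 RPKM in negative and at 22.2, 26.1, 8.70 and 10.0 RPKM in positive libraries, each in replicate order, and every positive library was above every negative one. Such a separation upward was seen in 4.61% of all genes. Its fold change of 1.53 (SE 0.38) had a limma adjusted p of 0.0507 and was called with the block (adjusted p = 0.001). The Prdm1 to Bcl6 ratio was accordingly lower in positive cells in 4 of 4 pools, at -1.28 ± 0.53 against -0.30 ± 0.55 log2 units. The difference of -0.98 did not pass (exact permutation p = 0.0571, 0.0952 adjusted over 5 ratios). In negative replicate 4 Bcl6 and Prdm1 both lay below the highest other-tissue gene, at 7.63 RPKM. Neither value, nor the ratio there, can be told from that level.

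**Figure D3:**
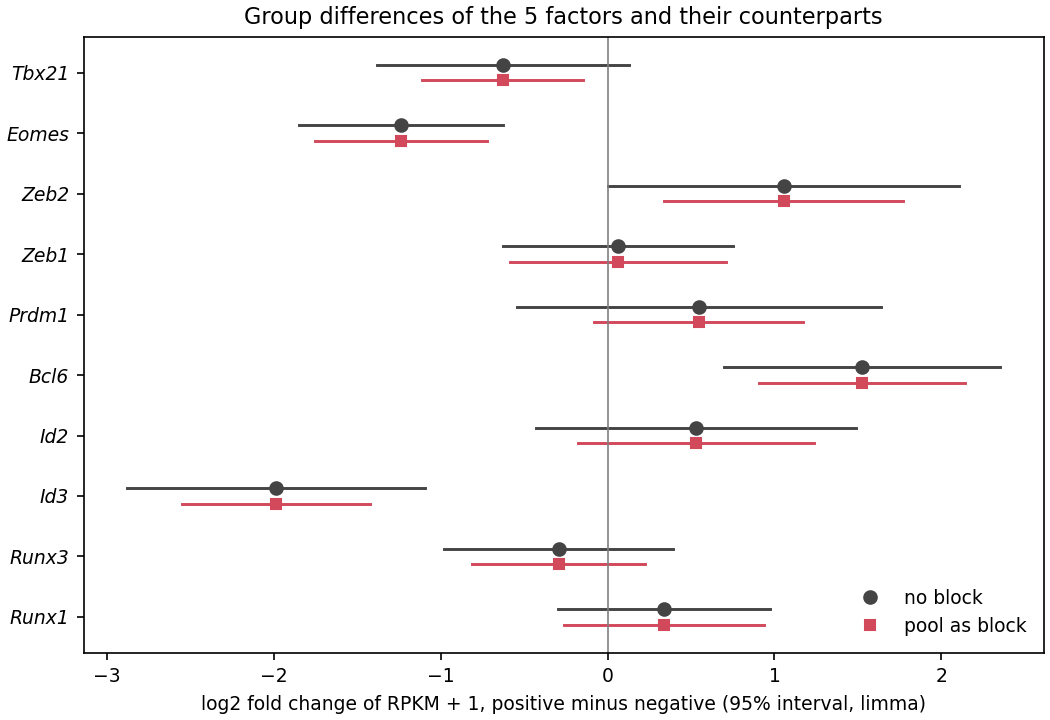
Log2 fold change of RPKM + 1, positive minus negative, with unadjusted 95% intervals of limma without a block (circles) and with the pool as a block (squares), for each factor above its counterpart. The intervals of Id3 and Eomes lie below 0 in both fits and that of Bcl6 above it. The interval of Zeb2 also lies above 0 in both fits, and that of Tbx21 below 0 with the block, though neither gene was called. The fold changes of the 5 factors lie between -0.63 and 1.06.

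Levels of general T cell genes moved with the groups and are given here because every factor is read beside them. The 16 core T cell genes, such as the CD3 chain genes Cd3d and Cd3g, summed to between 5107 and 8410 RPKM in negative and between 1810 and 4239 RPKM in positive libraries, with a median fold change of -1.03. All 16 were below 0, none was called without the block and 9 were called lower with it. In bulk samples fewer cells of a type and less RNA per cell cannot be told apart. In those libraries 9 cross-presenting dendritic cell genes, led in level by Naaa and Irf8, summed to 20.9 to 71.8 RPKM in negative and 596.1 to 1211 RPKM in positive cells, and all 9 were called higher. The 9 macrophage genes, led by C1qb and C1qc, summed to 108.9 to 417.7 and 1159 to 1770 RPKM, again with all 9 called. The 6 plasma cell genes, led by Jchain and Xbp1, summed to 51.4 to 539.2 and 436.0 to 1124 RPKM, with 1 called, and 4 NK cell genes, led by Klre1 and Klrb1c, summed to 61.6 to 116.6 and 37.4 to 98.8 RPKM, with none called. The defining genes Ncr1 and Klrb1c of NK cells were at 9.01 RPKM or less and at 28.2 RPKM or less. No listed marker was at 0 in every library of a group. The other marker lists were of 7 further dendritic cell genes (led by Cd209a and Clec4b1; 5 called higher), 4 plasmacytoid genes (Spib and Siglech; 1), 8 monocyte and neutrophil genes (Ly6c2 and Lyz2; 1), 5 B cell genes (Cd79a and Cd79b; 1, Fcrla, with the other 4 below 0 and a median of -0.67) and 6 basophil and mast cell genes (Mcpt8 and Prss34; 2). The part of these other cells in the values of the 5 factors was not tested.

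Set against the core T cell genes, the fold changes of all 5 factors were higher. With each library scaled to the same mean of these genes the median of all genes moved from -0.11 to 0.79, so a value has to be read against that shift. Zeb2 was then at 1.85, Id2 at 1.65, Prdm1 at 1.42, Runx3 at 0.76 and Tbx21 at 0.46, and the direction of Runx3 and Tbx21 was thus opposite to that on the deposited scale. Zeb2 and Id2 were called higher there (limma adjusted p = 0.0456 and 0.0288), beside 11.2% of all genes higher and 0.0167% lower. With the block added, 4 of the 5, all but Tbx21, were called higher, beside 50.7% of all genes. Relative to the median of all genes, Zeb2 stood at 1.06, Id2 at 0.86, Prdm1 at 0.62, Runx3 at -0.03 and Tbx21 at -0.33. Relative to the same median on the deposited scale they stood at 1.17, 0.64, 0.66, -0.18 and -0.52.

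Genes around the factors were taken from 7 lists, described by counts and medians beside a median of -0.11 for all genes tested. Of 11 family counterparts 2 were called lower, Eomes and Id3, and none higher, with a median of 0.06. With the block Bcl6 and Id1 were also called, both higher. Of 10 corepressors and chromatin partners, through which ZEB2 and Blimp-1 silence genes, none was called (1 at an unadjusted p below 0.05), and the median was -0.41. Prmt5, an arginine methyltransferase, was at 45.5 ± 16.6 against 26.8 ± 14.2 RPKM in negative and positive cells and was called lower with the block alone (-0.80, adjusted p = 0.0395).

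Of 12 other effector regulators, limma called none without the block (2 at an unadjusted p below 0.05; median -0.21). With the block 1 was called higher and 1 lower. Rbpj, the nuclear mediator of Notch signals, was at 2.71 to 6.70 RPKM in negative and 6.85 to 18.5 RPKM in positive libraries (1.25, block adjusted p = 0.00604). Stat4, which carries the interleukin 12 signal to Tbx21, was at 31.1 to 117.5 and 21.0 to 87.6 RPKM (-0.94, block adjusted p = 0.0135). Among 14 upstream cytokine receptor and STAT genes only Ifngr2, the signalling chain of the interferon gamma receptor, was called (1 higher, 0 lower; median -0.16). It rose from 5.05 ± 3.51 to 28.5 ± 10.6 RPKM (2.44, SE 0.45, limma adjusted p = 0.0103). Leaving out negative replicate 3 ended this call at 0.0548.

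Of 13 regulators of memory and naive cells, which include the counterparts Bcl6, Eomes, Id3 and Zeb1, 4 were called lower and none higher, with a median of -0.86. They were Myb, Tcf7, Id3 and Eomes. With the block 7 were called lower, Lef1, Foxo1 and Foxp1 among them, and 1 higher, Bcl6. Myb, which restrains terminal differentiation, fell from 18.3 ± 3.74 to 4.31 ± 1.62 RPKM (-1.89, SE 0.32, limma adjusted p = 0.00631) and no single library, when omitted, ended the call (8 of 8 fits). Tcf7, the gene of TCF-1, fell from 104.8 ± 27.1 to 37.1 ± 3.71 RPKM (-1.44, SE 0.33, limma adjusted p = 0.0336), and the call was kept only without negative replicate 4 among those 8 fits. These falls had been seen in these data before, and the core T cell genes, with a median of -1.03, were lower in the same libraries. Scaled to those genes, Myb was at -0.89 and Tcf7 at -0.34.

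**Figure D4:**
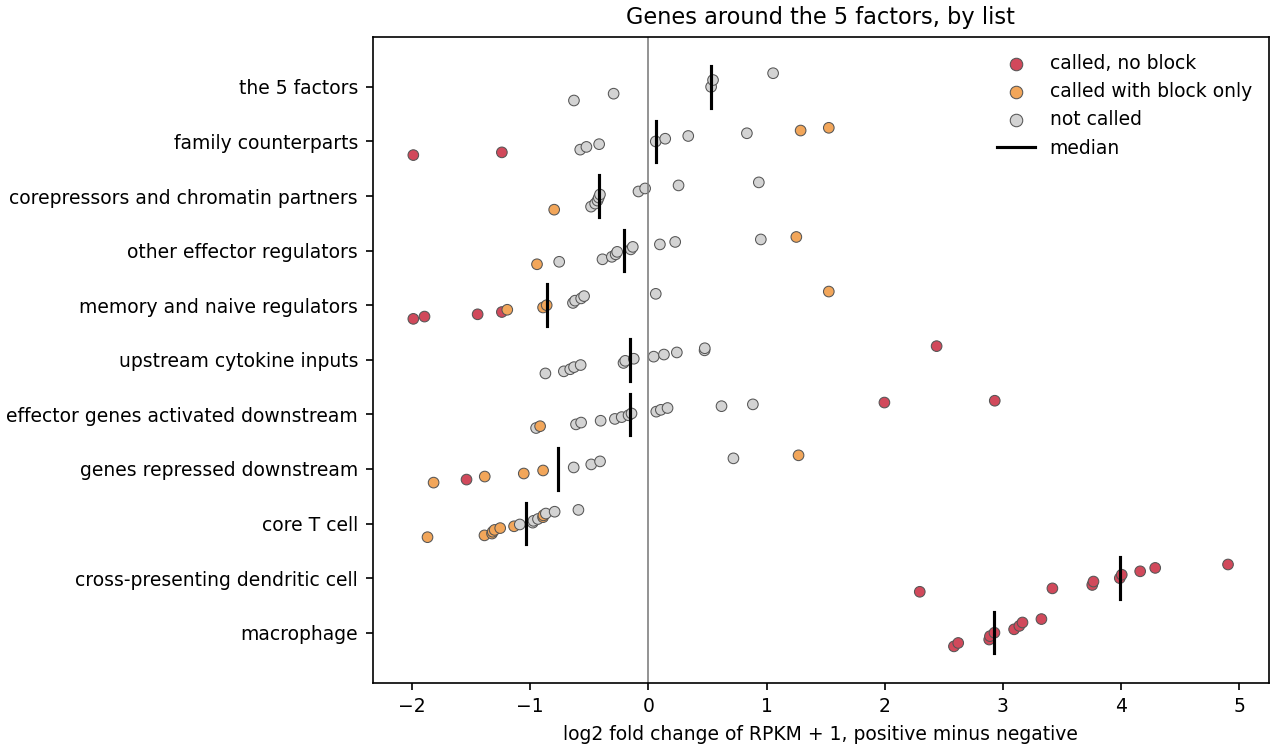
Log2 fold change of RPKM + 1, positive minus negative, of each gene by list, coloured by whether limma called it without the block, with it only, or not; black bars are medians. The 5 factors and the effector lists straddle 0, all 16 core T cell genes (median -1.03) and 11 of the 13 memory and naive regulators (median -0.86) lie below it, and the dendritic cell (3.99) and macrophage (2.93) genes above it.

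Effector genes that T-bet, ZEB2 or RUNX3 are known to activate lay on both sides of 0, 7 above and 9 below. Of these 16, 2 were called higher and none lower, with a median of -0.15. Ccl3, a chemokine of activated lymphocytes and myeloid cells, rose from 22.7 ± 6.38 to 220.9 ± 161.4 RPKM (2.93, SE 0.53, limma adjusted p = 0.00954) and was called whichever single library was omitted (8 of 8 fits). Itgae, an integrin chain of resident T cells that cross-presenting dendritic cells also carry, rose from 4.56 ± 2.52 to 22.7 ± 14.2 RPKM (SE of the log2 change 0.46, limma adjusted p = 0.0336). That call was lost without any 1 of negative replicates 1, 2 and 3 and positive replicates 1 and 2 (adjusted p up to 0.124). Cxcr3, a chemokine receptor and T-bet target, was at 289.6 ± 105.6 and 154.0 ± 67.6 RPKM (-0.92, called with the block alone, adjusted p = 0.0313). The terminal effector genes Klrg1, Cx3cr1 and S1pr5, named after their values were seen, had fold changes of 0.11, 0.62 and 0.07 and were not called.

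Of 10 tested genes that Blimp-1, ZEB2 or RUNX3 are known to repress, 1 was called lower and none higher, with a median of -0.76. Cxcr5, the follicle-homing receptor, fell from 18.6 ± 9.63 to 5.34 ± 1.51 RPKM (-1.54, SE 0.36, limma adjusted p = 0.0402). Its call was kept in 2 of 8 fits, those without negative replicate 4 or positive replicate 2, and rose to an adjusted p of 0.118. With the block 5 were called lower and 1 higher. Cd27, a costimulatory receptor of memory cells, was at 231.8 ± 68.7 and 88.4 ± 24.7 RPKM (-1.38, block adjusted p = 0.00115), and Socs1, a brake on cytokine signals, at 29.3 ± 5.08 and 14.5 ± 6.92 RPKM (-1.05, block adjusted p = 0.00666). Il2, also listed, was not analysed here.

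The genes whose log2 values followed each factor most closely were found by Pearson correlation over the 8 libraries, which share pools in pairs, as a description. Tbx21 was followed by Cecr5 (r = 0.97), Max (0.96) and Eif1ad (0.95), all of which were lower in the positive library of each pool. Zeb2 was followed by Def8 (0.99), Lrrk1 (0.98) and Slc43a2 (0.98), each highest in positive replicates 1 and 2. Prdm1 was followed by Ogdh (0.99), Mysm1 (0.98) and Tmbim6 (0.97), each highest in positive replicate 1. Id2 was followed less closely, by Lgals3 (0.90), Glipr1 (0.89) and Susd3 (0.88), each with its highest value in positive replicate 3, as Id2 had. Runx3 was followed by Zfp36l2 (0.98), Msl1 (0.96) and AI846148 (0.95), each lowest in positive replicate 1.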

How the data were processed

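The deposited table holds RPKM per gene and library, per the file headers, made by the authors; the submitters' processing notes name TopHat2 and the build mm9. The counting tool and its strand setting are not stated there. The table also gives the exon length of each gene in bases. Symbols of 21 genes turned into dates were restored by Entrez ID. Depth came from low values that are whole multiples of 1 read (tolerance 0.1 reads). Errors are spreads between pools. The 11946 of 13204 genes that reached 1 RPKM in 4 or more libraries were tested. The test was limma 3.58.1 (R 4.3.3; eBayes with trend, two-sided) on log2(RPKM + 1), group as the only term. Replicate numbers mark shared pools, per the series design, and the 2 libraries of pools 1 to 4 deviated together (r = 0.70, 0.41, 0.56 and 0.68), so a blocked fit is given beside it. Ratios were compared by exact permutation tests. The steps were tested on simulated data. Alternatives were pseudocounts, filters, scalings, trend, single libraries left out, pairs of pools alone and background subtraction. Named genes were the 5 factors, 1 counterpart each, up to 4 called members of each list by smallest p (2 by p where none), the 2 most abundant markers of each marker list and the 3 most correlated genes. A gene that this rule names is not reported here. Other list genes named (E protein genes, Cbfb, Cd8a, Cd8b1, Cd4, Ncr1, Klrg1, Cx3cr1 and S1pr5) were picked after their values were seen. Members and lists were chosen with earlier results of these data known. RefSeq gave the promoter sequences (GRCm38.p6). No gene coordinates are given for the expression table, which has none.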

Additional observations from a re-analysis of the deposited data

Results flagged for a closer look

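Among 30 groups of 4 libraries checked (the 5 factors, their counterparts and the 5 ratios, each in both groups) 1 had a library far from the rest. The Prdm1 to Bcl6 ratio of negative replicate 1 was 0.52 log2 units, whereas the other negative libraries lay between -0.68 and -0.49. Its gap to the nearest library was 0.846 of the whole range, above Dixon's 95% limit for 4 values. Chance alone gives about 1 such group in 20.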

How the results depend on the processing

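Across the alternatives run, no fit called Tbx21, and Tbx21 and Runx3 changed sign. Core T cell scaling gave 0.46 for Tbx21, 1.85 for Zeb2, 1.65 for Id2 and 0.76 for Runx3 with and without the replicate block, and 1.42 for Prdm1; Prdm1 and Runx3 passed there only with the block. Runx3 was at 0.011 in replicates 3 and 4 alone, and Zeb2 at 1.81 in replicates 1 and 2 alone, where it passed. Both fits had 2 libraries per group and no block. Leaving out each library in turn gave -0.84 to -0.43 for Tbx21, 0.75 to 1.38 for Zeb2, 0.13 to 0.92 for Prdm1, 0.37 to 0.73 for Id2 and -0.48 to -0.12 for Runx3, none of them called. The same gave ratios of 0.72 to 1.31 for Zeb2 to Zeb1, -1.22 to -0.71 for Prdm1 to Bcl6, 2.27 to 2.79 for Id2 to Id3 and -0.74 to -0.49 for Runx3 to Runx1. Each of these 4 passed in 1 or 2 such fits (exact permutation, adjusted p = 0.0476): Zeb2 to Zeb1 without positive replicate 3, Prdm1 to Bcl6 without positive replicate 1, and the others without positive replicate 1 or 3. Passing depended on how many ratios shared the smallest possible p in a fit.

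Over all genes 362 were called higher and 32 lower. With the replicate block these were 863 and 460, and the block called none of the 5 factors unless combined with core T cell scaling. The number higher was 220 after common-sum scaling, 1339 after core T cell scaling, 875 in replicates 1 and 2 alone, 1011 with the block and background subtraction (an alternative chosen after seeing the data, as was the block with core T cell scaling) and 6061 with the block and core T cell scaling. The number lower was 19 after median-ratio scaling and without the variance trend, 8 after common-sum scaling, 59 after quantile normalization, 2 after core T cell scaling, 142 in replicates 1 and 2 alone, 11 in replicates 3 and 4 alone and with background subtraction, 484 with the block and background subtraction and 12 with the block and core T cell scaling. Leaving out each library gave 178 to 503 higher and 5 to 45 lower. The filter at 5 RPKM gives no value for Zeb2 and Prdm1. Zeb2 and Zeb1 in pools 3 and 4, and Prdm1 there except in negative replicate 3, are limited by the level of the listed other-tissue genes. So are Bcl6 and Runx1 in negative replicate 4. The causes of these changes were not tested.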
